A study of Mus musculus with 6 samples.

Results

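Glycolysis breaks glucose down to pyruvate in the cytosol, and its genes, with those for lactate and for the entry of pyruvate into mitochondria, were followed here in 4T1 cells with and without a knockout of Carmil3. The set holds 34 genes, named by symbol and matched to the Ensembl identifiers of the deposited table, out of 23644 genes listed there. They were taken for their place in the pathway: glucose carriers, the enzymes of each glycolytic step, the enzymes that set fructose bisphosphate signals, lactate dehydrogenases, lactate carriers, and the carriers and enzymes that handle pyruvate in mitochondria. The libraries were 3 of the Carmil3-KO group, 4T1 cells of genotype Carmil3 knockout, and 3 of the WT group, 4T1 cells of genotype wild type. 4T1 is a mouse mammary tumour cell line, and both groups grew in the same serum-supplemented DMEM, with no drug or other treatment named. Carmil3 belongs to a family of proteins that bind actin capping protein. Per the labels' protocols the knockout cells were clones derived from single cells. How many clones were sequenced is not given, nor whether the controls were cloned, so the knockout and the choice of clone cannot be told apart. Separate cultures are not stated either, so a p-value here sets a difference against the spread of these libraries alone, a spread that may be technical.

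In textbook outline, hexokinase traps glucose in the cell, phosphofructokinase commits it to breakdown, and the later steps return ATP and NADH and end in pyruvate. Lactate dehydrogenase turns pyruvate into lactate and restores NAD+, and monocarboxylate carriers move the lactate out of the cell. Pyruvate that is spared enters mitochondria through its own carrier and meets the pyruvate dehydrogenase complex, which kinases switch off and phosphatases switch on. Many tumour cells make lactate even when oxygen is present, and hypoxia-inducible factor and Myc are known activators of glycolytic genes.

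In the 6 libraries the deposited FPKM (expression scaled by exon length and read depth) were divided by depths between 17779130 and 19046813 reads, as recovered from their spacing. The recovered reads of the listed genes summed to more, between 19332642 and 20709848 per library. These depths are thus divisors of the FPKM and not the total reads of a library. In a principal component analysis the first component took 71.4% of the variance and separated the groups, and along the next one Carmil3-KO replicate 3 stood apart from the other libraries of its group. Carmil3 itself lay between 0 and 0.0241 FPKM in Carmil3-KO cells and between 0.0117 and 0.0360 FPKM in WT cells, too low to check the labels. Of 8 epithelial markers 7 were listed, and all 7 were lower in Carmil3-KO cells. Their summed level, most of it Krt8 and Krt18, was 428 to 473 FPKM in Carmil3-KO cells and 1013 to 1107 FPKM in WT cells. Epcam, Krt7, Krt14 and Cdh1 reached 1 FPKM in WT libraries only, so they entered the test through the group where they are high. Epcam lay between 0.0270 and 0.132 FPKM in Carmil3-KO libraries and between 19.6 and 19.7 FPKM in WT libraries. Krt7 lay between 0.0893 and 0.195 FPKM in Carmil3-KO libraries and between 26.1 and 30.5 FPKM in WT libraries. The 5 listed fibroblast markers summed to 17.8 to 18.3 FPKM in Carmil3-KO cells, most of it Pdgfra, and to 11.5 to 12.2 FPKM in WT cells. Of the 2 that were tested, Pdgfra was higher and Col1a1 was lower (log2 change -0.97, limma adjusted p = 7.58e-05). Col1a1 reached 1 FPKM in WT libraries only, and so entered the test through that group. Leukocyte markers (7 of 8 listed) summed to 3.52 to 4.68 FPKM in Carmil3-KO cells and 4.20 to 4.24 FPKM in WT cells, with Ptprc, Csf1r, Itgam, Cd79a and Adgre1 under 0.5 FPKM in every library. Endothelial and adipocyte markers summed to at most 0.0697 FPKM in any library. The part of these marker shifts in the results on metabolic genes was not tested. In such bulk samples, fewer cells of a type and less RNA per cell cannot be told apart.

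Glycolytic transcripts were higher in Carmil3-KO cells at some steps, with no call at others, and the lactate dehydrogenase subunit Ldhb was nearly lost. Of the 34 genes, 32 reached 1 FPKM in 3 or more of the 6 libraries and were tested. The test was limma on log2(FPKM + 1), with Benjamini-Hochberg adjustment over all 11171 tested genes and a threshold of 0.05. Of the 32, 11 were higher in Carmil3-KO cells, 3 were lower and 18 did not pass. Over all tested genes 16.9% were higher, 18.7% were lower and 35.6% passed in either direction. The median log2 change was 0.09 over the 32 genes and -0.01 over all tested genes. The 2 groups did not overlap for 18 of the 32 genes (13 higher and 5 lower in Carmil3-KO cells), against 50.5% of all tested genes (24.2% higher and 26.4% lower). The count of higher genes was 6 without WT replicate 1 and 7 without Carmil3-KO replicate 1. Of the 14 calls, 8 held under every alternative that gave them a value, other than a test against a 1.5-fold change (a filter of 5 FPKM removes Ldhb): Hk2, Gpi1, Pfkfb3, Tpi1, Eno2 and Slc16a1 were higher, and Ldhb and Pdk3 were lower. The other 6, for Pfkfb2, Pfkfb4, Aldoa, Gapdh, Ldha and Pdhb, were lost under at least 1 alternative.

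**Figure D1:**
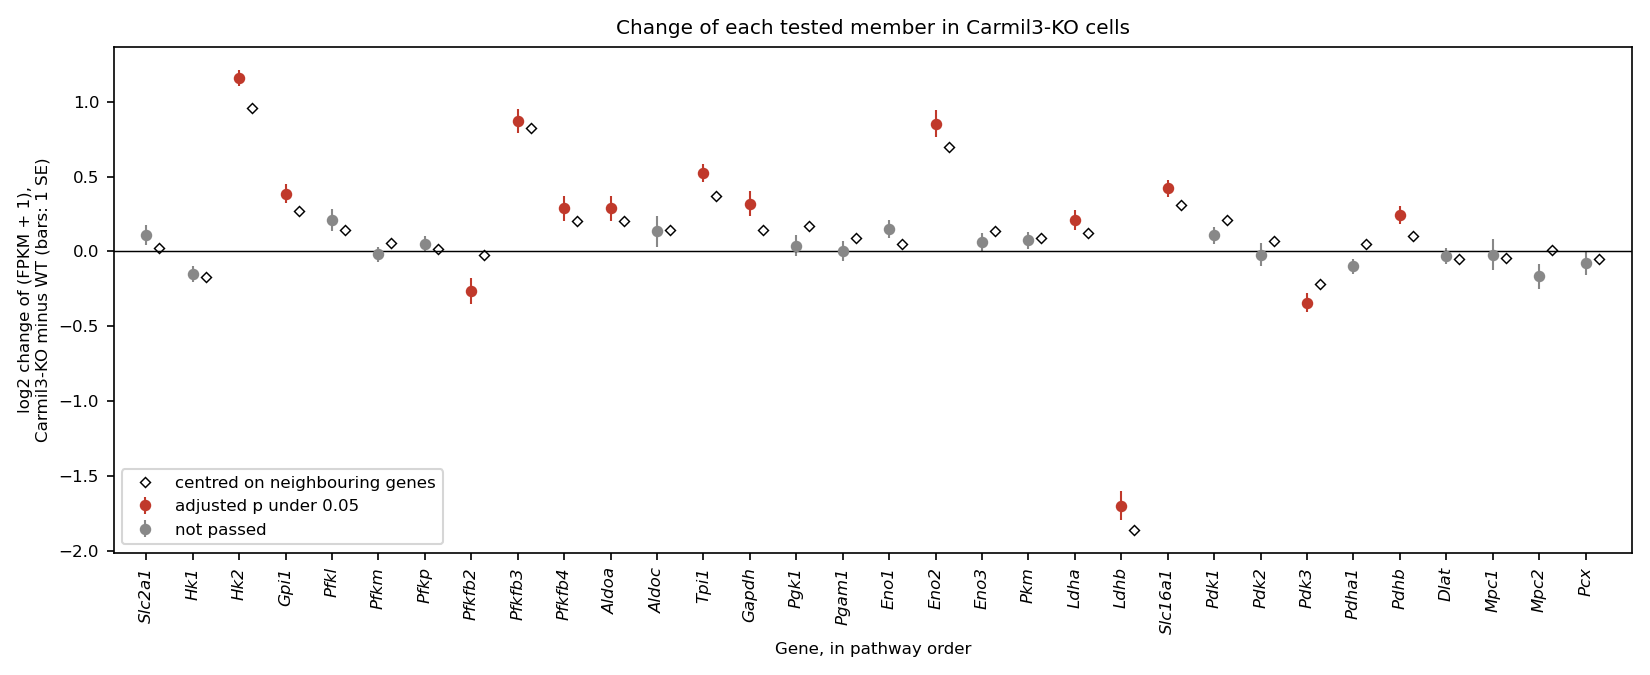
Log2 change of log2(FPKM + 1), Carmil3-KO minus WT, for the 32 tested genes in pathway order, with bars of 1 SE; red points passed limma at an adjusted p under 0.05, grey points did not, and open diamonds give the change centred on neighbouring genes. Hk2 at 1.16, Pfkfb3 at 0.87 and Eno2 at 0.85 stand above the other genes, and Ldhb at -1.70 stands below all of them.

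Large differences in either direction were found in Hk2, Pfkfb3, Eno2 and Ldhb, and the 250 bases before the RefSeq transcription start of these genes are shown so that they can be set beside the results, with Ldha as the partner of Ldhb. They run 5′ to 3′ on the strand of the gene (GRCm38.p6). Hk2 lies on the minus strand with its window at chr6:82774455-82774704, Pfkfb3 on the minus strand with its window at chr2:11553930-11554179, and Eno2 on the minus strand with its window at chr6:124769674-124769923. The RefSeq starts of Pfkfb3 and Ldha lie inside the genes as GENCODE draws them, 148 and 4329 bases from the outermost end, while those of Hk2, Eno2 and Ldhb match it. Ldhb lies on the minus strand with its window at chr6:142507958-142508207, and Ldha on the plus strand with its window at chr7:46845554-46845803. Capitals mark ACGTG or GCGTG on either strand, the core that hypoxia-inducible factor binds; ACGTG is also part of CACGTG, the E-box of Myc and of the glucose sensor MondoA with Mlx.
Hk2: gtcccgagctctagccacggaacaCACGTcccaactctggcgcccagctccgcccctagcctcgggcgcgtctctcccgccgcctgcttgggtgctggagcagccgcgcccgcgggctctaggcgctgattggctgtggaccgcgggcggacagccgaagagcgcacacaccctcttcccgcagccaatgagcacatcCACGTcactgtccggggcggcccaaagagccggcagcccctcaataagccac
Pfkfb3: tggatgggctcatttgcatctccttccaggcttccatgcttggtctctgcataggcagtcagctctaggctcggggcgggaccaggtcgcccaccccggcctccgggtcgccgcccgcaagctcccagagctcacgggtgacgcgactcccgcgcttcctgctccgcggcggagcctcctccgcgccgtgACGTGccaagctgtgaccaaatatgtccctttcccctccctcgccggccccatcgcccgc
Eno2: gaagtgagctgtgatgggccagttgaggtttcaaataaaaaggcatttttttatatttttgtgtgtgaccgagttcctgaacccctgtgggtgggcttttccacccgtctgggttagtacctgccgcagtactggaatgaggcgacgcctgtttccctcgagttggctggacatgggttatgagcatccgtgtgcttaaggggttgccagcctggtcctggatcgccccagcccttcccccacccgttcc
Ldhb: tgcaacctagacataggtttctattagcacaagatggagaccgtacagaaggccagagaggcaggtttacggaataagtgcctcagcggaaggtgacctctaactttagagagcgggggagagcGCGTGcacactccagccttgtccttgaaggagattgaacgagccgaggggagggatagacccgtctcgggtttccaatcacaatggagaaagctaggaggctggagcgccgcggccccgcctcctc
Ldha: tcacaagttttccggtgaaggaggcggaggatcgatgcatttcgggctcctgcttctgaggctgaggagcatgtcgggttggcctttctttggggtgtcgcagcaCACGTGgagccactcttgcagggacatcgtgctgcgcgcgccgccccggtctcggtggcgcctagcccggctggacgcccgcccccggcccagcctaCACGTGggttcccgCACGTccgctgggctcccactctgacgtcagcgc

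The Hk2 window held 2 such runs, that of Pfkfb3 1, that of Ldhb 1 and that of Ldha 3, while these letters were not found in the window of Eno2. Thus a run was found before Ldhb, which was lower in Carmil3-KO cells, as well as before genes that were higher. Windows were at hand for 33 of the 34 genes. ACGTG was found in 13 of the 33 (39.4%), against 22.8% of the 8271 windows of tested genes and 16.5% of all 27025 windows. GCGTG was found in 18 (54.5%), against 48.3% and 28.3%, and CACGTG in 5 (15.2%), against 8.85% and 5.98%. The search was chosen with the results known, and a match describes letters, not a bound site.

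Glucose import gave no call. Slc2a1, which encodes the carrier GLUT1, had 35.2, 30.8 and 33.8 FPKM in Carmil3-KO libraries and 30.0, 29.1 and 33.2 FPKM in WT libraries. The groups overlapped, and the difference did not pass (log2 change 0.11, limma adjusted p = 0.252). Slc2a3, which encodes the high-affinity carrier GLUT3, was too low to test, with 12 to 28 reads per Carmil3-KO library and 8 to 19 per WT library. Slc2a1 thus made up 99.4% to 99.7% of the summed FPKM of the 2 carriers in Carmil3-KO libraries and 99.5% to 99.8% in WT libraries.

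Hexokinase 2, the inducible hexokinase that can dock on mitochondria, showed the largest rise among the 32 genes. Hk2 (ENSMUSG00000000628, chr6:82725025-82774454) had 44.7, 44.3 and 41.3 FPKM in Carmil3-KO libraries, against 19.0, 19.0 and 18.6 FPKM in WT libraries. Its means were 43.4 ± 1.89 FPKM in Carmil3-KO cells and 18.9 ± 0.226 FPKM in WT cells (SD, n = 3 each), a ratio of 2.30. All 3 knockout libraries lay far above all 3 controls (log2 change 1.16, SE 0.05, limma adjusted p = 1.28e-06), and Hk2 was the only higher gene of the set that also passed a test against a 1.5-fold change. Hk1, the hexokinase of most tissues, had 19.3, 18.7 and 17.6 FPKM in Carmil3-KO libraries and 20.5, 20.4 and 21.2 FPKM in WT libraries. These values did not overlap, yet the difference did not pass (log2 change -0.15, limma adjusted p = 0.0609). It passed in limma-voom on recovered reads (adjusted p = 0.0479) and when centred on neighbouring genes (adjusted p = 0.0499).

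The make-up of the hexokinase transcripts changed with these levels. Hk2 contributed 69.9%, 70.3% and 70.1% of the summed hexokinase FPKM in Carmil3-KO libraries and 48.1%, 48.3% and 46.8% in WT libraries. Hexokinase transcripts together came to 62.0 ± 2.76 FPKM in Carmil3-KO cells and 39.6 ± 0.201 FPKM in WT cells (SD, n = 3 each). In FPKM, Hk2 was thus the more abundant isoform in each knockout library, while in WT libraries both isoforms stood at similar levels. FPKM here divides by all annotated exon bases, 8532 for Hk1 and 5969 for Hk2, so these shares depend on that length. In recovered reads, WT libraries held 3187, 3088 and 3379 for Hk1 and 2063, 2019 and 2081 for Hk2. Carmil3-KO libraries held 3135, 2960 and 2719 reads for Hk1 and 5085, 4897 and 4469 for Hk2.

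**Figure D2:**
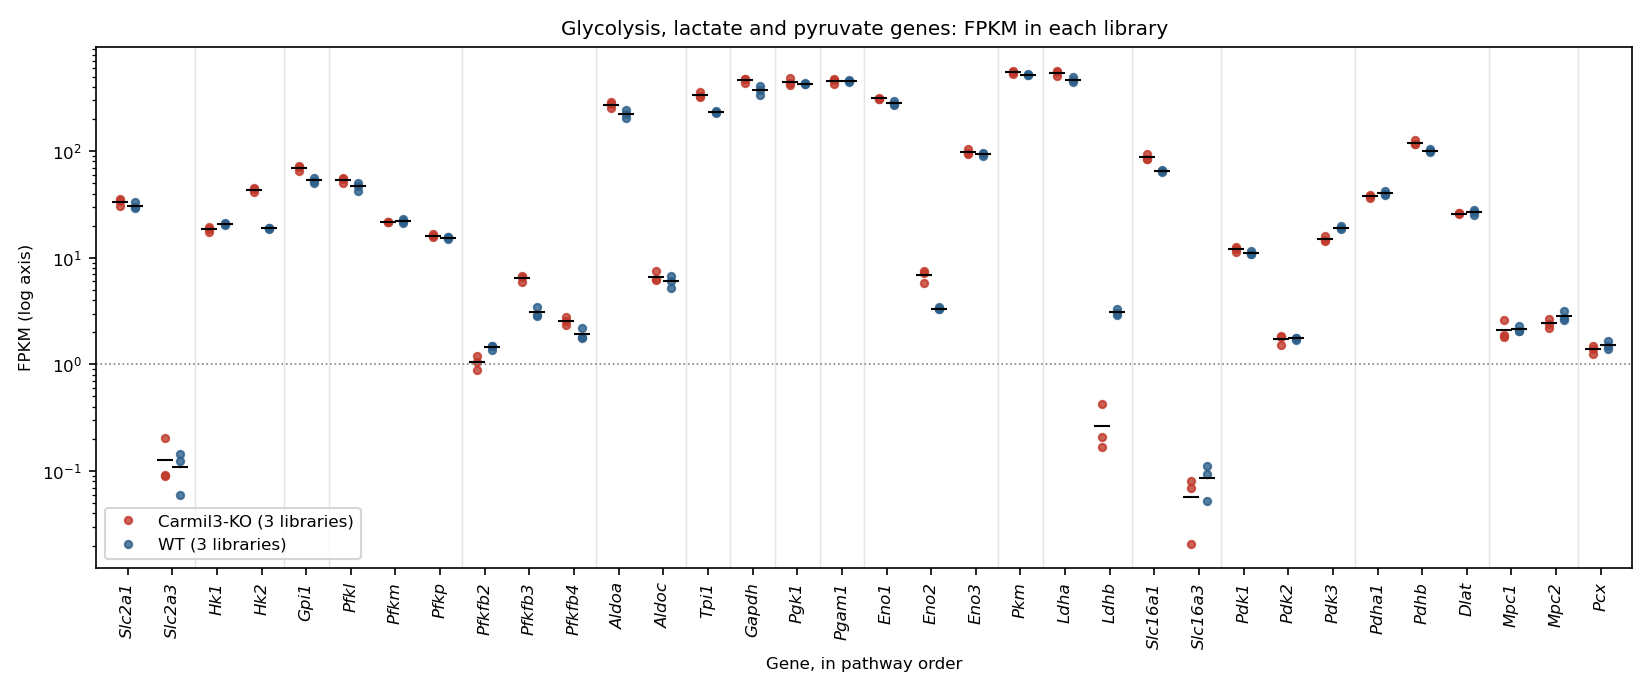
FPKM on a log axis for the 34 genes in pathway order, 1 point per library, with Carmil3-KO in red on the left and WT in blue on the right of each gene, black dashes for the means and a dotted line at 1 FPKM. The levels run from the nearly silent Slc2a3 and Slc16a3 to Pkm at over 500 FPKM in every library, and Ldhb is the one gene whose groups lie on opposite sides of the dotted line.

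The next enzyme, glucose phosphate isomerase, which converts glucose phosphate to fructose phosphate, rose as well. Gpi1 had 71.5, 65.5 and 72.5 FPKM in Carmil3-KO libraries and 52.8, 50.6 and 56.4 FPKM in WT libraries. The groups did not overlap (ratio 1.31, log2 change 0.38, limma adjusted p = 0.00202).

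Phosphofructokinase itself gave no call. Pfkl, the liver-type subunit and the most abundant of the 3, had 56.5, 50.6 and 55.0 FPKM in Carmil3-KO libraries and 46.8, 42.4 and 50.7 FPKM in WT libraries, with overlap between the groups (log2 change 0.21, limma adjusted p = 0.0554). It passed under 6 of the alternatives, with adjusted p = 0.0302 without WT replicate 3. The muscle-type Pfkm lay between 21.6 and 21.9 FPKM in Carmil3-KO libraries and between 21.1 and 22.9 FPKM in WT libraries (log2 change -0.02, limma adjusted p = 0.795). The platelet-type Pfkp, which overlaps the neighbouring gene Pitrm1 in the annotation, lay between 15.5 and 16.6 FPKM in Carmil3-KO libraries and between 15.0 and 15.7 FPKM in WT libraries (log2 change 0.05, limma adjusted p = 0.506).

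The PFKFB genes encode enzymes that make and break down the fructose bisphosphate that activates phosphofructokinase, and the 3 genes measured here did not move together. Pfkfb3 (ENSMUSG00000026773, chr2:11471433-11554077), the isoform that mostly makes the activator, had 6.80, 5.95 and 6.62 FPKM in Carmil3-KO libraries, against 3.45, 2.93 and 2.87 FPKM in WT libraries. Its lowest knockout value stood well above its highest control value (ratio 2.09, log2 change 0.87, limma adjusted p = 7.39e-05). Pfkfb4 had 2.79, 2.36 and 2.57 FPKM in Carmil3-KO libraries and 1.82, 1.78 and 2.18 FPKM in WT libraries. It was higher (ratio 1.34, log2 change 0.29, limma adjusted p = 0.0272), a call lost without WT replicate 1 or 2 or Carmil3-KO replicate 1 or 3, at adjusted p between 0.0502 and 0.0991, and when centred on neighbours (adjusted p = 0.109). Pfkfb2, known as the heart isoform, had 1.06, 1.19 and 0.882 FPKM in Carmil3-KO libraries and 1.49, 1.496 and 1.37 FPKM in WT libraries. It was lower (ratio 0.720, limma adjusted p = 0.0401), but 12 of its 20 nearest tested genes were lower too, and its log2 change of -0.26 became -0.03 when centred on neighbours (adjusted p = 0.859). The call of Pfkfb2 was also lost without any single library other than Carmil3-KO replicate 2, at adjusted p between 0.0656 and 0.125.

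Together the PFKFB transcripts came to 10.7, 9.50 and 10.1 FPKM in Carmil3-KO libraries and 6.76, 6.20 and 6.42 FPKM in WT libraries. Pfkfb3 made up 64.1% ± 1.59 of that sum in Carmil3-KO cells and 47.7% ± 3.21 in WT cells, while Pfkfb2 made up 10.4% ± 1.93 in Carmil3-KO cells and 22.5% ± 1.44 in WT cells (SD, n = 3 each). These shares did not overlap between groups.

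**Figure D3:**
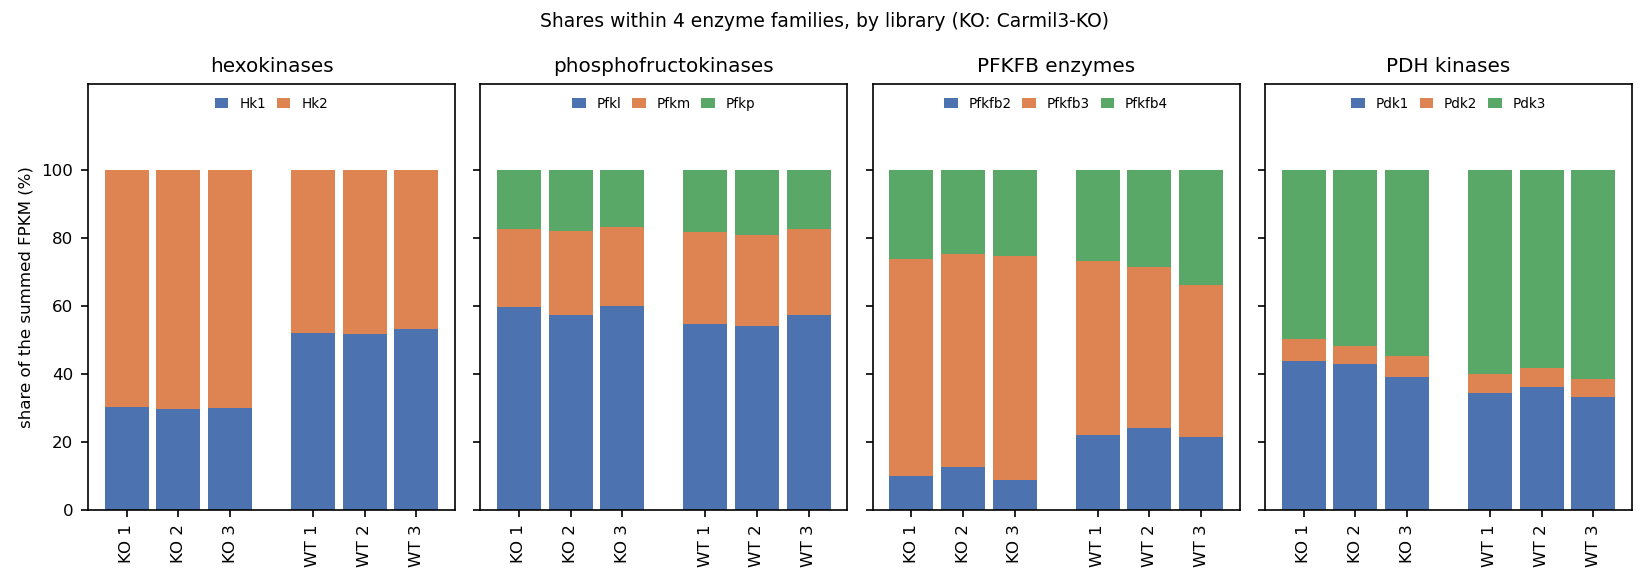
Share of the summed FPKM in percent that each isoform takes in 4 enzyme families, 1 stacked bar per library, with the Carmil3-KO libraries left of the WT libraries. Hk2 takes 69.9% to 70.3% of the hexokinase sum in Carmil3-KO libraries and 46.8% to 48.3% in WT libraries, and Pfkfb3 takes more and Pfkfb2 less in each Carmil3-KO library than in any WT library.

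The steps from aldolase to glyceraldehyde phosphate dehydrogenase were higher. Aldoa, the main aldolase of these cells, which splits fructose bisphosphate, had 279.4, 252.0 and 288.3 FPKM in Carmil3-KO libraries and 222.0, 205.1 and 245.0 FPKM in WT libraries. Every knockout value exceeded every control value, narrowly (ratio 1.22, log2 change 0.29, limma adjusted p = 0.0261), and the call was lost without WT replicate 1 or 2 or Carmil3-KO replicate 1 or 3, at adjusted p between 0.0542 and 0.0883, and when centred on neighbours (adjusted p = 0.09998). The brain-type Aldoc, 2.38% of the aldolase sum in Carmil3-KO cells and 2.60% in WT cells, lay between 6.19 and 7.52 FPKM in Carmil3-KO libraries and between 5.17 and 6.79 FPKM in WT libraries (limma adjusted p = 0.329).

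Triose phosphate isomerase, which interconverts the 2 products of aldolase, gave the firmest call among these steps. Tpi1 (chr6:124810586-124814296) had 329.8, 321.8 and 355.8 FPKM in Carmil3-KO libraries and 227.8, 232.5 and 238.9 FPKM in WT libraries. The groups stood well apart (ratio 1.44, log2 change 0.52, SE 0.06, limma adjusted p = 0.000306). Gapdh, whose product makes NADH and is a common loading control, had 476.0, 438.6 and 477.8 FPKM in Carmil3-KO libraries and 373.9, 334.8 and 409.6 FPKM in WT libraries. It was higher without overlap (log2 change 0.32, limma adjusted p = 0.0174). The call was lost without WT replicate 1 (adjusted p = 0.0620), without Carmil3-KO replicate 1 (adjusted p = 0.0545), with no filter on low values (adjusted p = 0.0501) and when centred on neighbours (adjusted p = 0.233).

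Gapdh and Eno1 have near-identical copies of part of their exon sequence elsewhere in the genome, so reads may be split between them. The processed pseudogene Gm13394, on chromosome 2 and 99.9% identical to Gapdh over 1000 bases, had 671.0, 614.6 and 659.6 FPKM in Carmil3-KO libraries and 528.1, 474.4 and 576.7 FPKM in WT libraries (log2 change 0.30, limma adjusted p = 0.0206). Its call was lost without WT replicate 1 or 2 or Carmil3-KO replicate 1 (adjusted p between 0.0568 and 0.0712). Gm7336, a Gapdh pseudogene on chromosome 7, changed by 0.32 on the log2 scale and did not pass (adjusted p = 0.205). The copies of Gapdh held 26.4% to 27.2% of the joint reads in Carmil3-KO libraries and 26.9% to 27.2% in WT libraries, so the split was close to equal in both groups. With reads of Gapdh and its copies summed, its log2 change was 0.32 (limma adjusted p = 0.0194).

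**Figure D4:**
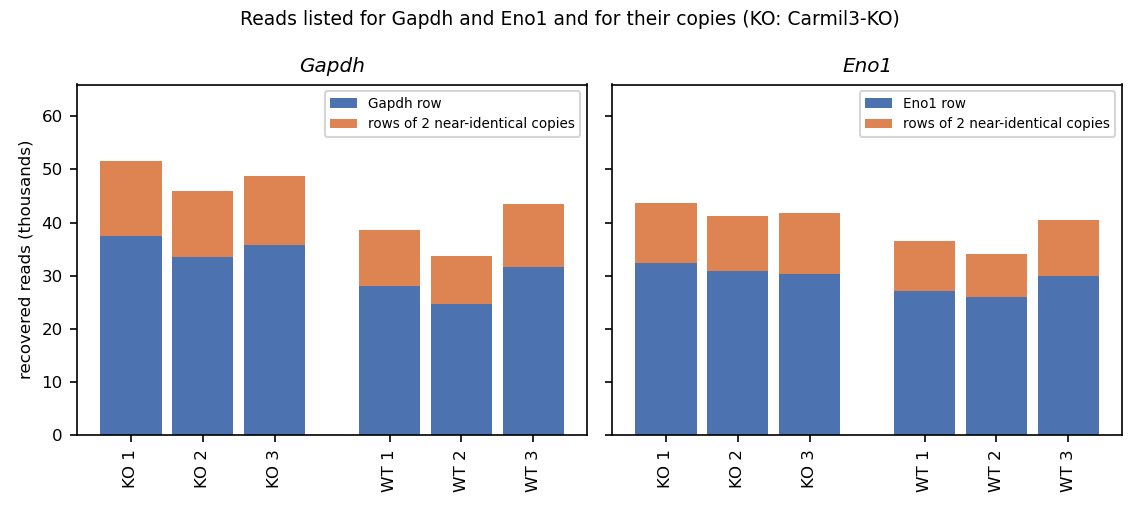
Recovered reads for Gapdh and Eno1 (blue) and for 2 near-identical copies of each (orange), 1 stacked bar per library, Carmil3-KO left of WT. The copies of Eno1 take 25.2% to 27.4% of the joint reads in Carmil3-KO libraries and 23.9% to 26.2% in WT libraries.

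An ATP-making step, that of phosphoglycerate kinase, and the one after it gave no call. Pgk1, which encodes phosphoglycerate kinase, had 431.2, 414.6 and 480.4 FPKM in Carmil3-KO libraries and 424.2, 438.8 and 424.9 FPKM in WT libraries (log2 change 0.04, SE 0.07, limma adjusted p = 0.688). Pgam1, the phosphoglycerate mutase, had 460.5, 425.6 and 478.4 FPKM in Carmil3-KO libraries and 452.8, 440.5 and 467.2 FPKM in WT libraries (log2 change 0.00, SE 0.06, limma adjusted p = 0.977). For both genes the ranges of the groups overlapped. The pseudogene Pgam1-ps2, which matches Pgam1 over 765 bases, stayed under 10.6 FPKM and did not pass (log2 change -0.21, limma adjusted p = 0.0931), but did without Carmil3-KO replicate 3 (adjusted p = 0.0247) and when centred on neighbours (log2 change -0.42, adjusted p = 0.00857).

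Enolase, which makes phosphoenolpyruvate, changed in its rarest isoform. Eno2 (ENSMUSG00000004267, chr6:124760053-124769673), known as neuron-specific enolase, had 7.54, 5.83 and 7.22 FPKM in Carmil3-KO libraries and 3.27, 3.28 and 3.45 FPKM in WT libraries. Its groups stood apart (ratio 2.06, log2 change 0.85, limma adjusted p = 0.000164). Eno1, the ubiquitous enolase, had 315.4, 310.1 and 311.3 FPKM in Carmil3-KO libraries and 278.0, 270.7 and 296.3 FPKM in WT libraries. These values did not overlap, and the difference did not pass (log2 change 0.15, limma adjusted p = 0.0752). With the copies summed the log2 change of Eno1 was 0.17 (limma adjusted p = 0.0684). Its copy Eno1b on chromosome 18, annotated as protein-coding, had 157.5, 155.1 and 171.4 FPKM in Carmil3-KO libraries and 137.6, 124.8 and 149.6 FPKM in WT libraries (log2 change 0.23, limma adjusted p = 0.0445). That call was lost when any library other than WT replicate 3 was left out (adjusted p between 0.0660 and 0.122). The pseudogene Gm4735 did not pass (log2 change 0.22, limma adjusted p = 0.104), but did without WT replicate 3 (adjusted p = 0.0351). The muscle-type Eno3 lay between 94.0 and 105.0 FPKM in Carmil3-KO libraries and between 90.9 and 96.3 FPKM in WT libraries (limma adjusted p = 0.433). Eno2 thus stayed a small part of the summed FPKM of Eno1, Eno2 and Eno3, a sum without the copies of Eno1. It made up 1.64% ± 0.203 in Carmil3-KO cells and 0.880% ± 0.0149 in WT cells (SD, n = 3 each).

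Pkm, which encodes the pyruvate kinase that ends glycolysis, had 553.7, 532.5 and 559.6 FPKM in Carmil3-KO libraries and 527.5, 517.9 and 516.3 FPKM in WT libraries. Its groups did not overlap, but the change was small and did not pass (log2 change 0.08, SE 0.06, limma adjusted p = 0.321). The table gives 1 value per gene, so the splice forms of Pkm were not analysed here.

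Counted over the 10 steps from hexokinase to pyruvate kinase, 6 of 16 enzyme genes were higher in Carmil3-KO cells and 0 were lower, against 16.9% and 18.7% of all tested genes, with a median log2 change of 0.14. All 6 higher genes lie on chromosome 6 or 7, where the median log2 change of tested genes was 0.16 and 0.13. Centred on neighbouring genes, 4 of the 16 were higher and 1 was lower, against 13.0% and 13.5% of all tested genes. At an unadjusted limma p under 0.05, 8 of the 16 were higher and 1, Hk1, was lower, a looser threshold for which no share over all genes is given here. Of the 16, limma-voom called 7 higher and 1 lower, against 2051 and 2250 of all genes. At the level of steps, at least 1 gene rose for hexokinase, glucose phosphate isomerase, aldolase, triose phosphate isomerase, glyceraldehyde phosphate dehydrogenase and enolase. No gene passed for phosphofructokinase, phosphoglycerate kinase, phosphoglycerate mutase or pyruvate kinase by limma, and of these limma-voom called Pfkl. The 16 genes summed to 3184, 3020 and 3295 FPKM in Carmil3-KO libraries and 2787, 2708 and 2889 FPKM in WT libraries. This was 1.10%, 1.04% and 1.08% of all listed FPKM in Carmil3-KO libraries and 0.964%, 0.944% and 0.991% in WT libraries, so the groups did not overlap.

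The lactate dehydrogenase subunits moved in opposite directions. Ldha, the subunit that favours making lactate, had 550.2, 510.2 and 568.4 FPKM in Carmil3-KO libraries and 464.8, 448.6 and 491.1 FPKM in WT libraries. It was higher without overlap (ratio 1.16, log2 change 0.21, limma adjusted p = 0.0376), a call lost under 5 of the alternatives, among them leaving out WT replicate 1 (adjusted p = 0.135), WT replicate 2 (adjusted p = 0.103) or Carmil3-KO replicate 1 (adjusted p = 0.104). Ldhb (ENSMUSG00000030246, chr6:142490249-142507957), the heart-type subunit that favours using lactate, had 0.167, 0.207 and 0.421 FPKM in Carmil3-KO libraries, against 2.91, 3.05 and 3.33 FPKM in WT libraries. These values stand for 5, 6 and 12 recovered reads in Carmil3-KO libraries and 83, 85 and 98 in WT libraries.

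Ldhb was thus nearly lost from the knockout libraries, and it showed the largest change of the 32 genes in either direction. It reached 1 FPKM in the WT libraries only, so it entered the test through the group where it is high. Its mean was 0.265 ± 0.137 FPKM in Carmil3-KO cells and 3.10 ± 0.218 FPKM in WT cells (SD, n = 3 each), 11.7-fold higher in WT cells. On the log2(FPKM + 1) scale, which understates changes of low genes, the log2 change was -1.70 (SE 0.10, limma adjusted p = 5.01e-06). With a pseudocount of 0.1 FPKM it was -3.19, with 5 FPKM -0.62, and in limma-voom on recovered reads -3.58. It was the only lower gene of the set to pass the test against a 1.5-fold change (adjusted p = 0.000103). Ldhb was a small part of the summed FPKM of Ldha and Ldhb in both groups. It made up 0.0483% ± 0.0229 in Carmil3-KO cells and 0.657% ± 0.0304 in WT cells (SD, n = 3 each).

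The carrier for lactate rose. Slc16a1, which encodes MCT1, had 84.8, 84.9 and 93.2 FPKM in Carmil3-KO libraries and 63.9, 65.5 and 66.1 FPKM in WT libraries. The groups stood well apart (log2 change 0.42, SE 0.06, limma adjusted p = 0.000705). Bsg, no member of the set but the gene for basigin, the chaperone that brings MCT1 to the membrane, had 177, 163 and 184 FPKM in Carmil3-KO libraries and 134, 116 and 146 FPKM in WT libraries. Bsg was higher as well (ratio 1.32, log2 change 0.40, limma adjusted p = 0.00873). Slc16a3, which encodes MCT4, the lactate exporter of many hypoxic cells, had 2 to 8 reads per Carmil3-KO library and 5 to 11 per WT library and was not tested. Slc16a1 thus made up 99.9% of the summed FPKM of the 2 carriers in the mean of either group.

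At the entry of pyruvate to mitochondria, 1 of 9 tested genes was higher, 1 was lower and 7 did not pass, with a median log2 change of -0.03. These counts are near the 16.9% and 18.7% of all tested genes. The mitochondrial pyruvate carrier is built from 2 subunits. Mpc1 lay between 1.82 and 2.62 FPKM in Carmil3-KO libraries and between 2.05 and 2.31 FPKM in WT libraries (log2 change -0.02, limma adjusted p = 0.889). Mpc2 lay between 2.21 and 2.64 FPKM in Carmil3-KO libraries and between 2.62 and 3.16 FPKM in WT libraries (log2 change -0.17, limma adjusted p = 0.148). Both carrier genes overlapped between groups. Pcx, which encodes pyruvate carboxylase, the enzyme that feeds oxaloacetate, lay between 1.25 and 1.499 FPKM in Carmil3-KO libraries and between 1.40 and 1.65 FPKM in WT libraries (log2 change -0.08, limma adjusted p = 0.497).

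Subunits of the pyruvate dehydrogenase complex did not move together. Pdhb, the beta subunit of the decarboxylase, had 115.4, 115.9 and 128.0 FPKM in Carmil3-KO libraries and 100.7, 98.0 and 104.4 FPKM in WT libraries. It was higher without overlap (ratio 1.19, log2 change 0.24, limma adjusted p = 0.0157), a call lost without WT replicate 1 (adjusted p = 0.0686) and when centred on neighbours (adjusted p = 0.254). Pdha1, the alpha subunit that the kinases phosphorylate, lay between 36.7 and 38.6 FPKM in Carmil3-KO libraries and between 39.1 and 42.1 FPKM in WT libraries, apart but not passing (log2 change -0.10, limma adjusted p = 0.166). Dlat, the acetyltransferase core, lay between 25.6 and 26.2 FPKM in Carmil3-KO libraries and between 25.1 and 27.9 FPKM in WT libraries (limma adjusted p = 0.689). Outside the set, the remaining subunits were lower. Dld, the dehydrogenase shared with other complexes, averaged 42.4 ± 2.57 FPKM in Carmil3-KO cells and 54.6 ± 1.82 FPKM in WT cells (log2 change -0.36, limma adjusted p = 0.00207). Pdhx, which tethers Dld to the core, averaged 9.69 ± 0.676 FPKM in Carmil3-KO cells and 11.6 ± 0.233 FPKM in WT cells (log2 change -0.24, limma adjusted p = 0.0181). Centred on neighbours, neither passed (adjusted p = 0.0956 for Dld and 0.222 for Pdhx), and Pdhx was also lost without WT replicate 1 or 2 or Carmil3-KO replicate 2 (adjusted p between 0.0514 and 0.0678).

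Among the kinases that inactivate the complex, Pdk3 was lower. It had 14.2, 14.6 and 16.1 FPKM in Carmil3-KO libraries and 18.9, 18.8 and 20.004 FPKM in WT libraries, without overlap (ratio 0.779, log2 change -0.34, limma adjusted p = 0.00337). Pdk1, a known target of hypoxia-inducible factor, had 12.5, 12.05 and 11.4 FPKM in Carmil3-KO libraries and 10.8, 11.6 and 10.8 FPKM in WT libraries, and did not pass (log2 change 0.11, limma adjusted p = 0.189), though it did when centred on neighbours (log2 change 0.21, adjusted p = 0.0311). Pdk2 lay between 1.503 and 1.84 FPKM in Carmil3-KO libraries and between 1.71 and 1.78 FPKM in WT libraries (limma adjusted p = 0.847). Pdk4 was not analysed here.

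Of the kinase transcripts, Pdk3 made up 52.2% ± 2.59 in Carmil3-KO cells and 60.0% ± 1.58 in WT cells, and Pdk1 made up 41.9% ± 2.56 in Carmil3-KO cells and 34.5% ± 1.44 in WT cells (SD, n = 3 each). The opposing phosphatases split. Pdp2 had 2.99, 3.23 and 2.90 FPKM in Carmil3-KO libraries and 5.77, 5.70 and 6.02 FPKM in WT libraries, and was lower (ratio 0.521, log2 change -0.76, limma adjusted p = 4.1e-05). Pdp1 averaged 9.79 ± 0.269 FPKM in Carmil3-KO cells and 6.92 ± 0.468 FPKM in WT cells (SD, n = 3 each), and was higher (log2 change 0.45, limma adjusted p = 0.000919). Pdpr, which encodes the regulatory subunit of the phosphatase, averaged 4.16 ± 0.933 FPKM in Carmil3-KO cells and 5.94 ± 0.591 FPKM in WT cells, and was lower (log2 change -0.44, limma adjusted p = 0.0377), a call lost when centred on neighbours (adjusted p = 0.357) and without WT replicate 1 (adjusted p = 0.120) or WT replicate 2 (adjusted p = 0.111).

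Position along the chromosomes moved with several of these changes. The median log2 change of tested genes was 0.16 on chromosome 6, which carries Hk2, Eno2, Tpi1, Gapdh and Ldhb, 0.13 on chromosome 7, which carries Gpi1, Aldoa and Ldha, and -0.12 on X, which carries Pgk1, Pdk3 and Pdha1. When each change was centred on its neighbours, by subtracting the median over the 20 closest tested genes to either side, 7 of the 32 genes were higher and 3 lower, against 13.0% and 13.5% of all tested genes. The centred log2 change was 0.96 for Hk2 (limma adjusted p = 4.1e-06), 0.82 for Pfkfb3 (0.000117), 0.70 for Eno2 (0.000595), 0.37 for Tpi1 (0.00238), 0.31 for Slc16a1 (0.0042), 0.27 for Gpi1 (0.0133) and 0.21 for Pdk1. Among lower genes it was -1.86 for Ldhb (3.3e-06), -0.22 for Pdk3 (0.0331) and -0.17 for Hk1. What underlies the regional medians was not tested.

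Hk2 and Ldhb differed from the genes beside them. Of the 20 tested genes closest to Hk2, 10 were higher in Carmil3-KO cells, with log2 changes from -0.58 to 0.61 and a median of 0.24, all below that of Hk2. Its immediate neighbours Pole4 and Dok1 changed by 0.26 and 0.22. Around Ldhb, 9 of the 20 were higher and 0 were lower by limma, and Golt1b beside it was higher (log2 change 0.36, adjusted p = 0.00556). The 20 genes around Ldhb spanned -0.38 to 0.80. Around Pfkfb3 the median was 0.03, and the genes on either side, Sfmbt2 and Rbm17, changed by -0.03 and 0.01. Eno2 and Tpi1 lie close together, with Spsb2 (log2 change 0.15) between them among the tested genes.

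**Figure D5:**
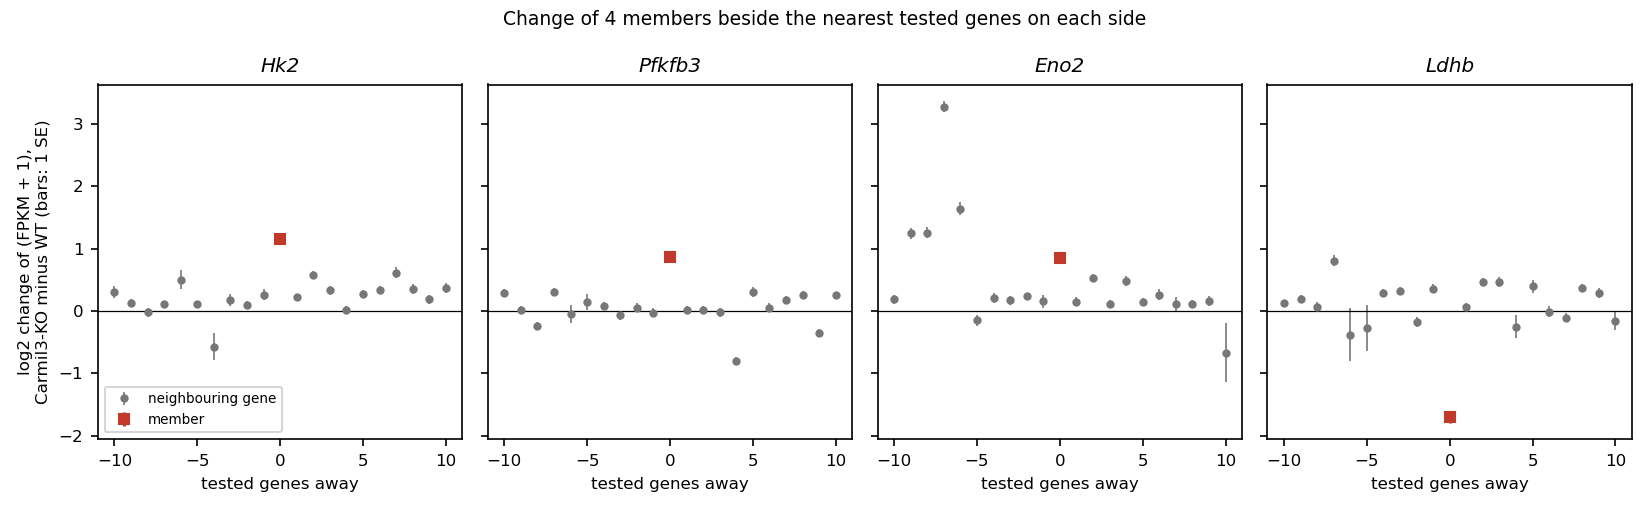
Log2 change of log2(FPKM + 1), Carmil3-KO minus WT, with bars of 1 SE, for Hk2, Pfkfb3, Eno2 and Ldhb (red squares) and for the 10 tested genes closest on either side (grey points), by the number of tested genes away. Hk2, Pfkfb3 and Ldhb lie outside the range of their neighbours, while Eno2 lies below 4 complement genes on its left, among them C1s1 at 3.28.

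Variation within the groups was shared by many of the genes. Carmil3-KO replicate 2 was the lowest of its group for 18 of the 32 genes, with a median deviation of -5.76% from the group mean, and Carmil3-KO replicate 3 was the highest for 17 (3.38%). WT replicate 2 was the lowest of its group for 18 genes (-2.73%), and WT replicate 3 was the highest for 20 (2.89%). Over all tested genes these medians lay within -0.600% and 0.657% in the 6 libraries. The coefficient of variation had a median of 5.95% over the 32 genes in Carmil3-KO cells and 4.40% in WT cells, with a maximum of 51.6% in Carmil3-KO cells for Ldhb.

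Further genes of glucose handling were described from a list of 56, of which 28 were tested: 7 were higher and 7 were lower, against 16.9% and 18.7% of all tested genes, and the median log2 change was -0.01. Centred on neighbours, 7 were higher and 2 lower, against 13.0% and 13.5% of all tested genes. Besides Bsg and Pdp1, the higher genes included Gys1, the glycogen synthase of most tissues (log2 change 0.32, limma adjusted p = 0.0141, lost without WT replicate 1 at 0.0555 and centred on neighbours at 0.152), and Pgm1, which links glycogen to glycolysis (log2 change 0.29, limma adjusted p = 0.00696). Pgm2, a related phosphopentomutase, was lower (log2 change -0.26, limma adjusted p = 0.00575).

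Genes of the TCA cycle and of the shuttles that carry NADH into mitochondria changed in both directions. Of 33 tested, 5 were higher and 12 were lower, against 16.9% and 18.7% of all tested genes, with a median log2 change of -0.09. Centred on neighbours, 4 were higher and 8 lower, against 13.0% and 13.5% of all tested genes. Ogdhl, a relative of the oxoglutarate dehydrogenase gene, had 5.34, 4.65 and 5.26 FPKM in Carmil3-KO libraries and 1.64, 1.83 and 2.23 FPKM in WT libraries, and was higher (ratio 2.68, log2 change 1.07, limma adjusted p = 4.55e-05). Ogdh itself had 37.3, 36.5 and 32.8 FPKM in Carmil3-KO libraries and 48.8, 49.4 and 51.7 FPKM in WT libraries, and was lower (log2 change -0.48, limma adjusted p = 0.000529). The pair thus moved in opposite directions, with Ogdh the more abundant in both groups. Malic enzymes, which make pyruvate from malate, were lower. The cytosolic Me1 averaged 18.7 ± 1.20 FPKM in Carmil3-KO cells and 30.8 ± 1.08 FPKM in WT cells (log2 change -0.69, limma adjusted p = 5.98e-05), and the mitochondrial Me2 averaged 45.7 ± 2.30 FPKM in Carmil3-KO cells and 62.2 ± 1.11 FPKM in WT cells (log2 change -0.44, limma adjusted p = 0.000454). Acly, which returns citrate carbon to acetyl-CoA in the cytosol, was lower (log2 change -0.37, limma adjusted p = 0.00128). Idh2, the mitochondrial NADP-linked isocitrate dehydrogenase, was higher (log2 change 0.33, limma adjusted p = 0.00365), as were Slc25a10, a dicarboxylate carrier (log2 change 0.29, limma adjusted p = 0.0205), and Suclg2, a succinyl-CoA ligase subunit (log2 change 0.24, limma adjusted p = 0.00889). The call of Slc25a10 was lost without Carmil3-KO replicate 1 (adjusted p = 0.0665), and centred on neighbours neither Slc25a10 (0.0507) nor Suclg2 (0.328) passed.

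Of 20 tested regulators of glycolytic genes, 7 were higher and 3 were lower, against 16.9% and 18.7% of all tested genes, with a median log2 change of 0.10. Txnip, a MondoA target whose product curbs glucose uptake, had 28.1, 26.9 and 31.6 FPKM in Carmil3-KO libraries, against 10.0, 9.37 and 10.1 FPKM in WT libraries. No library of one group came near the other (ratio 2.94, log2 change 1.46, limma adjusted p = 1.77e-06). Mlxip, which encodes MondoA, had 14.0, 13.7 and 11.3 FPKM in Carmil3-KO libraries and 8.19, 7.34 and 7.51 FPKM in WT libraries, and was higher (log2 change 0.68, limma adjusted p = 0.000493). Its partner Mlx averaged 13.9 ± 1.13 FPKM in Carmil3-KO cells and 18.4 ± 1.14 FPKM in WT cells, and was lower (log2 change -0.38, limma adjusted p = 0.00436). Thus the members of this glucose-sensing pair moved in opposite directions.

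Myc averaged 54.2 ± 1.83 FPKM in Carmil3-KO cells and 39.6 ± 2.56 FPKM in WT cells (SD, n = 3 each), and was higher (log2 change 0.44, limma adjusted p = 0.000809). Hif1a, the oxygen-regulated subunit of hypoxia-inducible factor, which is controlled largely at the protein level, had 49.8, 50.7 and 55.8 FPKM in Carmil3-KO libraries and 55.7, 56.6 and 55.6 FPKM in WT libraries. It did not pass (log2 change -0.10, limma adjusted p = 0.190), but was lower without Carmil3-KO replicate 3 (adjusted p = 0.0203). Vhl, which marks that subunit for breakdown, was higher (log2 change 0.46, limma adjusted p = 0.00291). The oxygen-sensing hydroxylases Egln1 (log2 change -0.26, limma adjusted p = 0.0280) and Hif1an (log2 change -0.28, limma adjusted p = 0.0337) were lower. Both calls were lost without WT replicate 1 (adjusted p = 0.1002 for Egln1 and 0.0969 for Hif1an) and centred on neighbours (0.984 for Egln1 and 0.0525 for Hif1an). Leaving out WT replicate 3 or Carmil3-KO replicate 2 also ended both, at adjusted p between 0.0568 and 0.0910, as did Carmil3-KO replicate 1 for Egln1 (0.0673) and WT replicate 2 for Hif1an (0.0682).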

How the data were processed

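RNA sequencing of 3 Carmil3-KO and 3 WT libraries of 4T1 cells was analysed. The authors deposited 1 table of FPKM for 23644 Ensembl genes, a unit read from the values. Tools named in the submitters' processing notes are TopHat2 2.0.12, HTSeq 0.6.0, TopHat, Bowtie2, Bowtie and CASAVA, with the build mm10. Their roles, the annotation release and the strand setting are not stated, so reads of genes that overlap or lie antisense to each other cannot be told apart.

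Symbols and positions came from GENCODE M21 (GRCm38), with a symbol for 23587 genes and none for 57. The fit was limma 3.58.1 (R 4.3.3, moderated with trend and robust settings) on log2(FPKM + 1). It covered 11171 genes that reached 1 FPKM in 3 or more libraries, with Benjamini-Hochberg adjustment over all of them at 0.05. It was tested on simulated data, with changes of 1.5-fold or more in genes of more than 200 mean reads. Smaller changes, and changes of genes with few reads such as Ldhb, were not covered. Tables and plots were made in Python 3.11.15 with pandas 2.3.3, numpy 2.4.6 and matplotlib 3.10.9, and copies of at least 98% identity over at least 200 bases were found with minimap2.

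FPKM times exon length gave whole reads, to 0.02 of a read, for 91.9% to 92.2% of values, among genes of at most 500 reads, and these depths are approximate. Any pair of libraries of 1 group showed differences above sampling noise (chi-square between 2.90 and 17.8 per degree of freedom). Each library counted as 1 sample, though such differences can be technical and do not show separate cultures. Replicate numbers were not used to pair the groups in the main fit.

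The alternatives were pseudocounts of 0.1 and 5 FPKM, no filter, a filter of 5 FPKM, median-of-ratios scaling, quantile scaling, eBayes with neither trend nor robust, a 1.5-fold test, a replicate block, leaving out each library, limma-voom on recovered reads, and centring on 20 tested neighbours to either side. Summing the reads of copies was added after seeing the data. The genes of the set, the lists and the promoter search were chosen with earlier results of these data known. Named genes were all 34 of the set; from each related list up to 4 called genes per direction with the largest change and a higher group mean of at least 2 FPKM; Bsg, Dld, Pdhx, Pdk4 (not analysed here), Pdp1, Pdp2, Hif1a, Myc and Txnip; copies with at least 1 FPKM; and Carmil3. Promoter windows came from RefSeq (GRCm38.p6).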

Additional observations from a re-analysis of the deposited data

How the results depend on the processing

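No call of a gene of the set was reversed under any alternative that was run, while small changes of genes that did not pass, such as Pfkm, Pdk2, Pdha1 and Mpc2 when centred on neighbours, changed sign. Of the set, 11 genes were higher and 3 lower. Other alternatives gave 7 higher with no filter, 7 when centred on neighbours and 6 to 12 with 1 library left out, and 1 lower with a filter of 5 FPKM. The test against a 1.5-fold change gave 1 higher (Hk2) and 1 lower (Ldhb). Over all genes, 1886 were higher and 2087 lower; that test gave 118 and 193, and leaving out 1 library gave 1182 to 2041 higher and 1358 to 2218 lower, the lowest without WT replicate 1. For the other glucose genes (7 higher, 7 lower), the 1.5-fold test called 0 in either direction (0 higher and 1 lower at an unadjusted limma p under 0.05), centring left 2 lower, and leaving out 1 library gave 4 to 7 higher and 4 to 8 lower. For TCA cycle and shuttle genes (5 higher, 12 lower), no filter gave 3 higher, and the 1.5-fold test gave 1 higher and 0 lower (0 lower at an unadjusted limma p under 0.05; limma-voom without the fold limit called 12). For the regulators (7 higher, 3 lower), no filter gave 1 lower, the 1.5-fold test gave 1 higher and 0 lower (0 at an unadjusted limma p under 0.05; limma-voom without the fold limit called 3), and leaving out 1 library gave 1 to 5 lower. The cause of these moves was not tested.

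The deviations of libraries with the same number correlated at -0.06, 0.15 and 0.10 over all tested genes, and not every library correlated best with its own number. Over the 32 tested genes of the set, replicate 2 was the lowest of its group for 18 in either group. Replicate 3 was the highest for 17 in the Carmil3-KO group and for 20 in the WT group. Whether libraries of the same number share a batch was not tested. With the replicate number as a block, 12 genes of the set were higher and 2 lower, against 1900 and 2127 of all genes.

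Depth limits Slc2a3, Slc16a3 and the Carmil3-KO values of Ldhb, which rest on few reads. The knockout, the clone and any regional difference between the lines cannot be told apart, and transcript levels say nothing of enzyme activity or lactate output.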

Other observations

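The stretch of chromosome 6 that holds Eno2 and Tpi1 also holds complement genes that were higher in Carmil3-KO cells. C1s1, a protease of the first complement component and the 7th tested gene from Eno2, had a log2 change of 3.28 (limma adjusted p = 9.26e-08). C1s2 changed by 1.64, C1ra by 1.25 and C1rl by 1.24, each with an adjusted p under 0.05. C1s2 averaged 2.17 FPKM in Carmil3-KO cells and 0.0136 FPKM in WT cells, so it entered the test through the group where it is high. C1s1 averaged 16.3 FPKM in Carmil3-KO cells and 0.793 FPKM in WT cells. The log2(FPKM + 1) scale understates changes of such low values. The genes between them and Eno2 were closer to the regional level: Lpcat3 had a log2 change of -0.15, Emg1 of 0.20 and Phb2 of 0.17, none of which passed, and Ptpn6 was higher at 0.23 (adjusted p = 0.00893). These genes were picked after their values were seen. On the far side, Cdca3, which is known for its role in entry into mitosis, was higher (log2 change 0.48, adjusted p = 0.00274).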
